A study of Mus musculus with 6 samples.

Results

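miR-34 and miR-449 form a family by a shared seed. The tumour suppressor p53 switches on the miR-34 genes, and miR-34a and its relatives are known for halting the cell cycle and for promoting the loss of β cells exposed to saturated fatty acids or cytokines. miR-132 and miR-212 come from a shared primary transcript that rises when cAMP activates the transcription factor CREB. In islets they respond to glucagon-like peptide signals and are known to increase insulin secretion. A miRNA acts through its seed, bases 2 to 8 of the mature strand, and a hairpin can yield a mature strand from each of its arms, named 5p and 3p.

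Both groups of miRNAs were examined in small extracellular vesicles (sEVs) that pancreatic islets of wild-type C57BL/6J mice (C57/B6J in the labels) shed into serum-free medium over 48 hours of culture. Islets of mice on a normal chow diet (NCD) gave 3 libraries of normal islet-derived sEVs (nid-sEVs), and islets of mice on a high-fat diet (HFD) gave 3 libraries of adaptive islet-derived sEVs (aid-sEVs), with HFD feeding of 9 weeks stated for the study in general. The age and number of mice behind each library are not given for the sequencing, so the p-values measure the spread between these libraries, which may be technical. The vesicles come from whole islets, so fewer cells of a type and less RNA per cell cannot be told apart. The members were found by name, as every entry for either arm of miR-34a, miR-34b, miR-34c, miR-449a to miR-449c, miR-132 or miR-212. The rule found 6 of 718 entries, which are the arms of 3 hairpins, mmu-miR-34c, mmu-miR-132 and mmu-miR-212. Values for mmu-miR-34a-5p, miR-34b and the miR-449 hairpins were not analysed here. The question was how the level of each member in the vesicles differs between the diets.

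The level is given in RPM, in which the authors scaled the reads of an entry to a fixed library total. The RPM values were whole multiples of the RPM of 1 read, and the recovered library totals were 50534 to 129152 reads in nid-sEVs and 122266 to 519315 reads in aid-sEVs. At 3 reads, the smallest level taken as measurable, the floor was 23.2 to 59.4 RPM in nid-sEVs and 5.78 to 24.5 RPM in aid-sEVs. The β-cell miRNA miR-375-3p was the most abundant entry in every library except nid-sEV replicate 1, where 18.3% of the reads went to a single entry that miRBase does not name and 33.5% to all entries of that kind. In nid-sEV replicate 3, miR-375-3p alone took 34.6%. The members were therefore counted from few reads in nid-sEVs, and their intervals there are wide.

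The sequences of the miR-132 and miR-212 hairpins are shown first, because the difference between the diets was carried mainly by 1 arm. In the following lines the mature arms are in capitals, with the 5p arm before the 3p arm, as given by RefSeq for GRCm38.p6.
Mir212: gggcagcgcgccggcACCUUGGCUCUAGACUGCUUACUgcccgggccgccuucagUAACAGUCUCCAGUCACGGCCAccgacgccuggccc
Mir132: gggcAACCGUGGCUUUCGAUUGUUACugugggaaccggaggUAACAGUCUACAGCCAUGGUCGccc

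The hairpins lie on the plus strand at chr11:75173388-75173478 and chr11:75173682-75173747, 203 bases apart. Both sit inside the noncoding gene 1700016P03Rik, at chr11:75172560-75177633 on the same strand, and overlap no exon of its annotated transcript, so they are intronic. Mir34c lies at chr9:51103034-51103110 on the minus strand, 451 bases from Mir34b. Its surroundings are an intron of the protein-coding gene Btg4, which is on the other strand.

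The 5 mature strands with a RefSeq sequence are shown with the seed in capitals, to show which members could read the same target sites.
mmu-miR-212-5p: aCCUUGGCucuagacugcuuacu
mmu-miR-212-3p: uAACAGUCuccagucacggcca
mmu-miR-132-3p: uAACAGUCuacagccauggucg
mmu-miR-132-5p: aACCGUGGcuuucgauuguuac
mmu-miR-34c-3p: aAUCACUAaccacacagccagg

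The 3p arms of miR-132 and miR-212 share a seed, and 17 of their 22 bases are the same when aligned from base 1 without gaps. The abundant arm of miR-212 does not share that seed. How reads that could come from either 3p arm were assigned is not given in the sources used here. Among the listed entries with a RefSeq sequence, 424 of the 479 that carry a miRBase name, no entry outside the members had the seed of any of these strands.

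Of the members, mmu-miR-212-5p had the largest difference in mean RPM between the diets. Its level was 108, 168 and 0 RPM in nid-sEV replicates 1, 2 and 3 and 826, 1153 and 924 RPM in aid-sEV replicates 1, 2 and 3. All aid-sEV libraries lay far above all nid-sEV libraries. The means were 92.0 ± 85.0 RPM (SD, n = 3) in nid-sEVs and 968 ± 168 RPM (SD, n = 3) in aid-sEVs, a ratio of 10.5. The closest libraries were separated by their counting error, with 95% Wilson intervals of 93.5 to 299.9 RPM in nid-sEV replicate 2 and 752 to 908 RPM in aid-sEV replicate 1.

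These levels of mmu-miR-212-5p rest on 14, 11 and 0 reads in the nid-sEV replicates and on 429, 406 and 113 in the aid-sEV replicates. At the mean level of aid-sEVs, nid-sEV replicate 3 would have held 48.9 reads and held none. In the libraries of similar depth, 129152 reads in nid-sEV replicate 1 held 14 of this arm and 122266 in aid-sEV replicate 3 held 113. The part of depth in the difference was not tested. By abundance mmu-miR-212-5p ranked 75 to 86 among all entries in aid-sEVs. It ranked 201 and 183 in nid-sEV replicates 1 and 2 and was not detected in nid-sEV replicate 3.

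**Figure D1:**
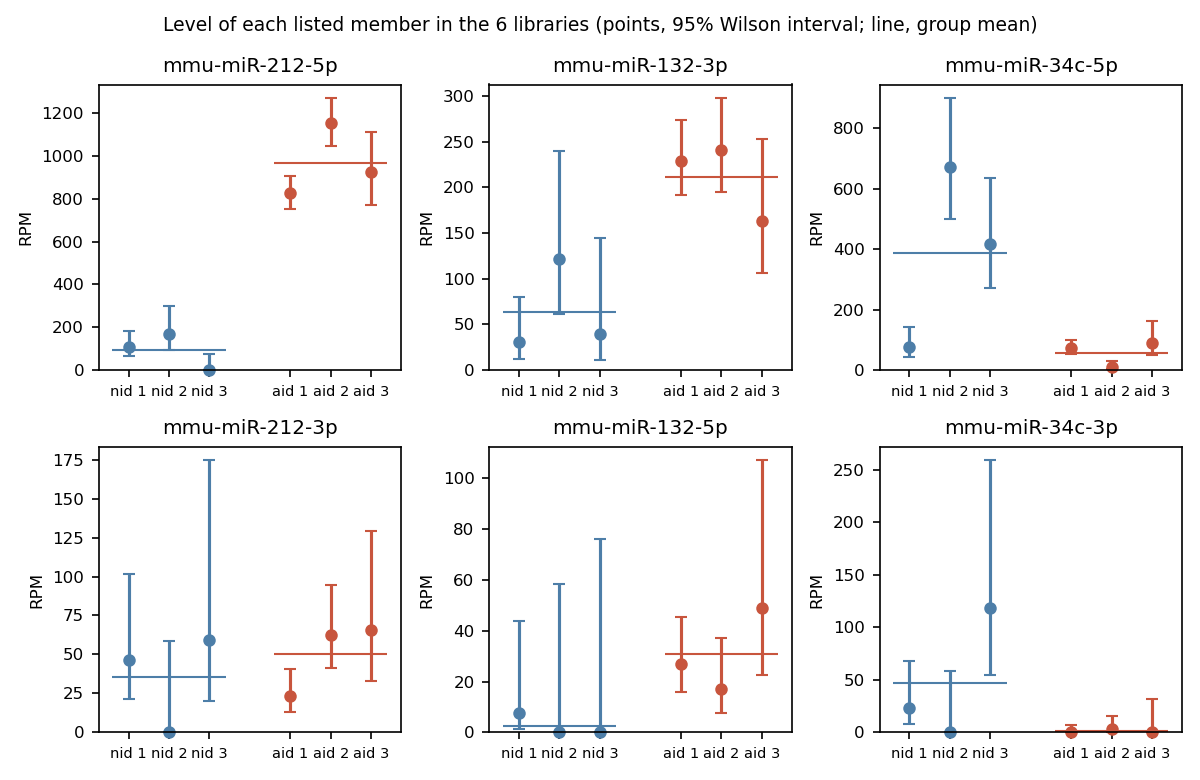
Level in RPM (vertical axes, each from 0) of the 6 listed members in nid-sEV (blue) and aid-sEV (red) replicates 1 to 3. Points are libraries with 95% Wilson intervals for counting error and horizontal lines are group means. For mmu-miR-212-5p the aid-sEV libraries sit between 826 and 1153 RPM and the nid-sEV libraries at or under 168 RPM, while for mmu-miR-34c-5p the groups overlap at nid-sEV replicate 1.

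The fold change of mmu-miR-212-5p on the log2(RPM + 1) scale was 5.18 (SE 1.96), but its adjusted p by limma was 0.14, above the threshold of 0.05. The library at 0 reads widened the spread on this scale. Without nid-sEV replicate 3 the log2 fold change was 2.82 and the adjusted p by limma was 0.020. Tests made for counts, run on the recovered reads, called it up-regulated, with a log2 fold change of 3.35 and an adjusted p of 0.030 by edgeR's quasi-likelihood test, 3.96 and 0.0019 by edgeR's exact test and 3.53 and 0.00012 by DESeq2. The two-sided exact permutation test over libraries gave p = 0.10, the smallest that 3 against 3 allow.

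mmu-miR-132-3p, the arm of miR-132 to which most of the known roles in neurons and islets belong, was also higher in every aid-sEV library. It had 31.0, 122 and 39.6 RPM in the nid-sEV replicates and 229, 241 and 164 RPM in the aid-sEV replicates. The means were 64.1 ± 50.2 and 211 ± 41.8 RPM (SD, n = 3), a ratio of 3.30. The gap was narrower than that of mmu-miR-212-5p, and the intervals of nid-sEV replicate 2 and aid-sEV replicate 3 overlapped, at 61.7 to 240 RPM and 106 to 253 RPM.

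The log2 fold change of mmu-miR-132-3p was 1.95 (SE 0.72), with an adjusted p by limma of 0.14. With counts as input, edgeR's quasi-likelihood test gave a log2 fold change of 1.76 (adjusted p = 0.047) with its filter on low counts and 2.39 (adjusted p = 0.089) without it, where the call was lost. DESeq2 gave 1.96 (adjusted p = 0.041), while edgeR's exact test gave 2.39 with an adjusted p of 0.062. Its exact permutation p was 0.10. In the libraries of similar depth it had 4 reads in nid-sEV replicate 1 and 20 in aid-sEV replicate 3.

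The minor arms had only 0 to 6 reads in each nid-sEV library. mmu-miR-132-5p had 1, 0 and 0 reads in the nid-sEV replicates and 14, 6 and 6 in the aid-sEV replicates, which are 27.0, 17.0 and 49.1 RPM. It was higher in every aid-sEV library, but the ratio of pooled reads, 6.42, had a counting interval from 1.05 to 263, and its adjusted p by limma was 0.083. These aid-sEV levels lie under the 59.4 RPM floor of the shallowest nid-sEV library.

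mmu-miR-212-3p had 46.5, 0 and 59.4 RPM in the nid-sEV replicates and 23.1, 62.5 and 65.4 RPM in the aid-sEV replicates. The groups overlapped, and the log2 fold change of 1.72 (SE 1.72) had an adjusted p by limma of 0.55. Its sign rests on nid-sEV replicate 2, without which the log2 fold change was -0.20. The ratio of pooled reads was 1.15 with a counting interval of 0.55 to 2.69, and the interval for the other arm of its hairpin was 6.30 to 14.5. Both intervals leave out the spread between libraries, so they do not test a difference between the arms.

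Summed over the seed that both share, mmu-miR-132-3p and mmu-miR-212-3p had 77.4, 122 and 98.9 RPM in the nid-sEV replicates and 252, 304 and 229 RPM in the aid-sEV replicates. Summed over all 4 arms, the pair of hairpins had 194 ± 95.2 RPM in nid-sEVs and 1260 ± 191 RPM in aid-sEVs (SD, n = 3). These sums are descriptions and were not tested. Most of the rise in the sum was that of mmu-miR-212-5p.

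Within the summed reads of these 4 arms, mmu-miR-212-5p took 74.7%, 78.2% and 76.9% in aid-sEV replicates 1, 2 and 3, and mmu-miR-132-3p took 20.7%, 16.4% and 13.6%. In nid-sEV replicates 1 and 2, mmu-miR-212-5p took 56.0% and 57.9%, with Wilson intervals from 37.1% to 73.3% and from 36.3% to 76.9%. The sums there were only 25 and 19 reads. In nid-sEV replicate 3 it took 0 of 5 reads, which allows a share of up to 43.4% by the Wilson interval. The make-up was therefore stable across aid-sEVs and known only roughly in nid-sEVs.

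**Figure D2:**
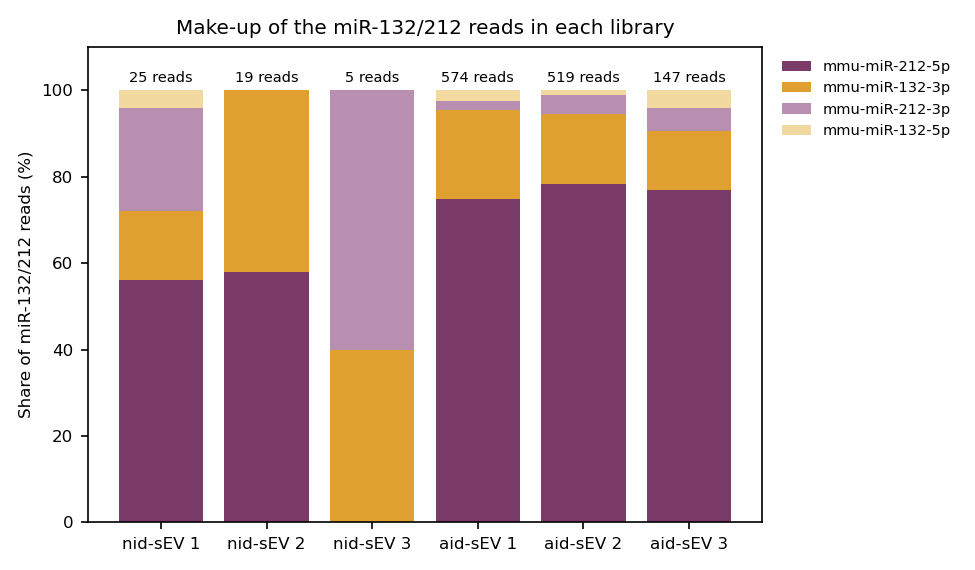
Share of the miR-132 and miR-212 reads in each library (percent, stacked to 100) that belonged to each of the 4 mature arms, with the number of reads above each bar. In aid-sEVs, mmu-miR-212-5p takes 74.7% to 78.2% of 147 to 574 reads, while the nid-sEV bars rest on 5 to 25 reads.

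The choice of arm was compared within each hairpin, where the library total cancels. The 5p arm took 97.3%, 94.9% and 93.4% of the miR-212 reads in the aid-sEV replicates and 70.0%, 100% and 0% in the nid-sEV replicates, of 20, 11 and 3 reads. The share in nid-sEV replicate 2 was above those of aid-sEVs, so the groups overlapped. As log2 ratios of the arms with 1 read added to each, the means were 4.29 in aid-sEVs and 0.90 in nid-sEVs (difference 3.39, two-sided exact permutation p = 0.10, adjusted p = 0.20 over the 2 hairpins tested). With 0.5 reads added the exact permutation p was 0.30. For miR-34c the difference was 0.53 (exact permutation p = 1, adjusted p = 1), and miR-132 had too few reads in nid-sEV replicate 3 to be tested.

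mmu-miR-34c-5p, the arm with the family's shared seed, went the other way. Its level was 77.4, 670 and 416 RPM in the nid-sEV replicates and 73.2, 11.4 and 90.0 RPM in the aid-sEV replicates. The nid-sEV replicates 2 and 3 were high, whereas nid-sEV replicate 1 lay among the aid-sEV libraries, so the groups overlapped. The means were 388 ± 297 and 58.2 ± 41.4 RPM (SD, n = 3), with nid-sEVs higher by a ratio of 6.66.

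The log2 fold change of mmu-miR-34c-5p was -2.68 (SE 1.17, adjusted p = 0.21 by limma), and the exact permutation p was 0.20. DESeq2 gave -2.64 with an adjusted p of 0.036, and edgeR's quasi-likelihood and exact tests gave -2.79 and -2.17 with adjusted p-values of 0.072 and 0.18. In the libraries of similar depth, nid-sEV replicate 1 and aid-sEV replicate 3, it had 10 and 11 reads. Without nid-sEV replicate 1 the log2 fold change was -3.60 (adjusted p = 0.064 by limma). In nid-sEV replicates 2 and 3, the shallowest libraries, it had 44 and 21 reads and would have had 3.82 and 2.94 at the mean level of aid-sEVs. Without nid-sEV replicates 2 and 3 in turn, the log2 fold change was -2.05 and -2.39. It was smallest in size, at -1.77, without aid-sEV replicate 2, where this arm had 4 reads. Without any 1 of these 3 libraries the difference was thus smaller in size, but its direction was kept. The adjusted p-values by limma were 0.39 without nid-sEV replicate 2, 0.31 without nid-sEV replicate 3 and 0.42 without aid-sEV replicate 2.

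The other arm, mmu-miR-34c-3p, had 3, 0 and 6 reads in the nid-sEV replicates and 0, 1 and 0 in the aid-sEV replicates. Its level in nid-sEVs was 23.2, 0 and 119 RPM. The ratio of pooled reads was 36.5 in favour of nid-sEVs, with a counting interval from 5.05 to 1600, but the libraries overlapped, and the adjusted p by limma was 0.28. Over both arms miR-34c had 435 ± 297 RPM in nid-sEVs and 59.1 ± 39.8 RPM in aid-sEVs (SD, n = 3).

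By limma, 0 of the 6 members were called, which took an adjusted p below 0.05 and a change beyond 1 on the log2 scale. In the whole table the same rule called 15.6% of the entries up-regulated and 1.81% down-regulated. An unadjusted p under 0.05 by limma was found for 3 of the 6 members and for 200 of all 718 entries. By edgeR's quasi-likelihood test, 2 of the 3 members that passed its filter on low counts were called up-regulated, where 19.6% of all tested entries were. These were mmu-miR-212-5p and mmu-miR-132-3p. Both had more reads in aid-sEVs, which helped them past the filter, so this count is not separate support. By edgeR's exact test only mmu-miR-212-5p was called up-regulated, where 8.50% of all entries were. By DESeq2, mmu-miR-212-5p and mmu-miR-132-3p were up-regulated and mmu-miR-34c-5p was down-regulated, where 9.05% and 6.96% of all entries were.

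By position alone, 3 of the 6 members, both arms of miR-132 and the 5p arm of miR-212, had all aid-sEV libraries above all nid-sEV libraries. So did 24.2% of the entries in the whole table, and 7.52% were lower in every aid-sEV library, which no member was. Over the 718 entries the log2 fold change had a median of 1.11, and over the 219 with reads in each library, which include mmu-miR-132-3p and mmu-miR-34c-5p, it had a median of -0.21. After division by TMM factors the median of all entries was 1.43, and after centring it was 1.28. The log2 fold changes of mmu-miR-212-5p, mmu-miR-132-3p and mmu-miR-34c-5p then were 5.68, 2.44 and -2.19 and 5.36, 2.12 and -2.50, with the adjusted p of mmu-miR-132-3p at 0.047 under TMM factors by limma.

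**Figure D3:**
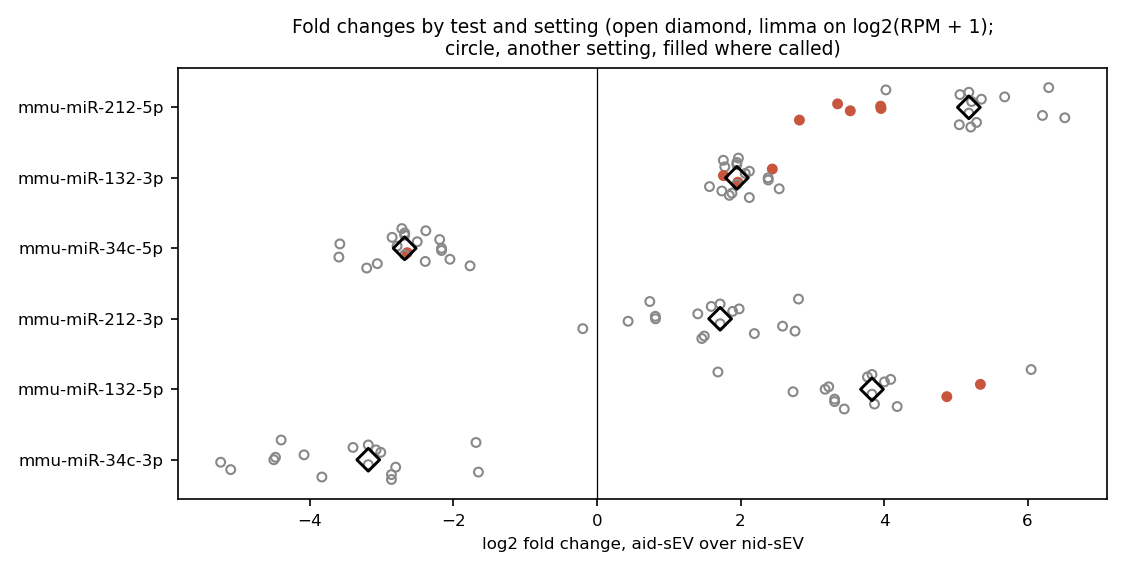
Log2 fold change of aid-sEVs over nid-sEVs (horizontal axis) for each member under limma on log2(RPM + 1) (open diamond) and under the other tests, scalings, filters and left-out libraries (circles, filled where called). The circles of mmu-miR-212-5p lie between 2.82 and 6.52 and those of mmu-miR-34c-5p between -3.60 and -1.77, and mmu-miR-212-3p crosses 0 without nid-sEV replicate 2.

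Related miRNAs were read in 3 lists. Of 10 miRNAs linked to p53 by induction or processing, 1 was up-regulated, 1 was down-regulated and 8 were not called, where 15.6% of all entries were up-regulated and 1.81% down-regulated. Their log2 fold changes had a median of -0.31, against 1.11 for all entries and -0.21 for those with reads in each library. miR-192-5p rose from 1196 ± 774 to 5628 ± 567 RPM (log2 fold change 2.49, SE 0.61, adjusted p = 0.039 by limma). miR-200c-3p, which keeps epithelial cells epithelial by repressing Zeb1 and Zeb2, fell from 1762 ± 394 to 498 ± 83.0 RPM (log2 fold change -1.81, SE 0.40, adjusted p = 0.030). The p53-linked list thus had members in both directions.

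Of 11 miRNAs known from islets under cytokines, fatty acids or diabetes, 1 was up-regulated and 10 were not called, against the 15.6% of all entries called up-regulated. Their median log2 fold change was 0.70, which lies between the 1.11 of all entries and the -0.21 of those with reads in each library. The called member, miR-383-5p, rose from 170 ± 78.0 to 937 ± 62.2 RPM (adjusted p = 0.024 by limma). miR-146a-5p, a brake on NF-κB signalling that is induced by cytokines together with miR-34a, had 1563 to 5604 RPM in nid-sEVs and 642 to 1390 RPM in aid-sEVs, with a log2 fold change of -1.55 and an adjusted p of 0.15. miR-21a-5p, another cytokine-induced miRNA, had 1507 ± 1015 and 1884 ± 431 RPM and overlapped between the groups (adjusted p = 0.59).

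Of 5 miRNAs regulated by neuronal activity or the clock, as miR-132 and miR-212 are, 1 was up-regulated and 4 were not called, against the same 15.6% of all entries. The median log2 fold change was 1.33, near the 1.11 of all entries. That median is the value of miR-9-5p, whose mean RPM was lower in aid-sEVs, at 116 ± 60.8 against 189 ± 190 RPM with a nid-sEV library at 0. The neuronal miR-124-3p rose from 74.4 ± 54.4 to 2271 ± 697 RPM (log2 fold change 5.09, SE 0.65, adjusted p = 0.0072 by limma). miR-134-5p was higher in every aid-sEV library, at 229 to 331 RPM against 79.2 to 139 RPM, with an adjusted p of 0.14. The other members, miR-138-5p and miR-219a-5p, had lower mean levels in aid-sEVs, at 0 against 10.2 RPM and 12.6 against 22.9 RPM, and were not called (adjusted p = 0.22 and 0.94 by limma). The list therefore did not move together.

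**Figure D4:**
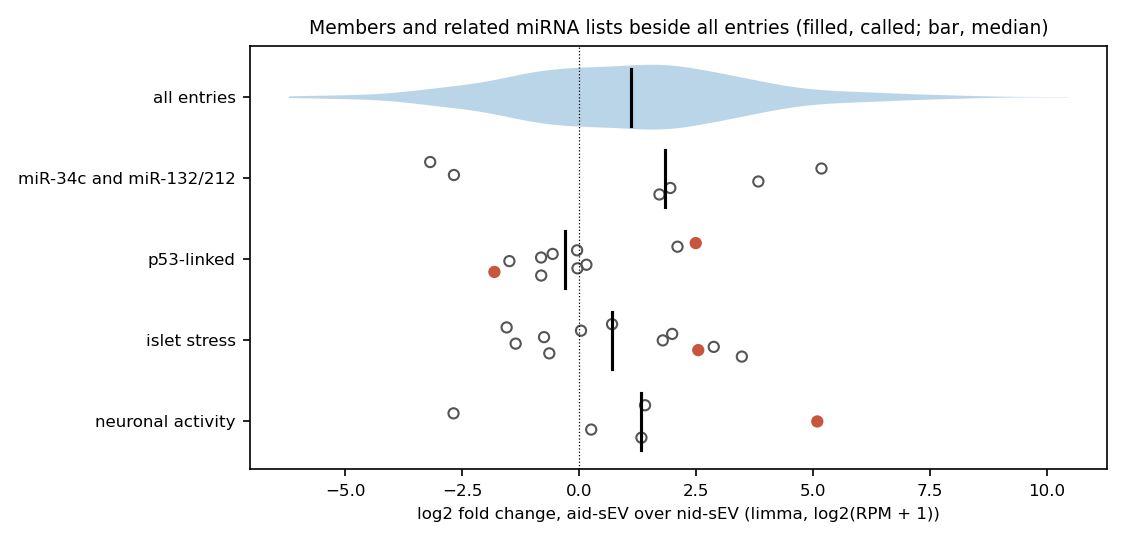
Log2 fold change of aid-sEVs over nid-sEVs by limma (horizontal axis) for all 718 entries (shaded distribution), the 6 members and the members of the 3 related lists (circles, filled where called; bars, medians). The miR-132 and miR-212 arms lie to the right of 0 and the miR-34c arms to the left, the p53-linked list has a median of -0.31 and the neuronal activity list one of 1.33.

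The profile of mmu-miR-212-5p over the 6 libraries was set beside those of the 178 miRBase-named entries detected in every library, by the root mean square difference of centred log2(RPM + 1) values. The nearest were miR-379-5p, miR-124-3p and miR-672-5p, with differences of 2.04, 2.06 and 2.15. miR-672-5p, for example, had 38.7, 30.5 and 19.8 RPM in the nid-sEV replicates and 795, 943 and 597 RPM in the aid-sEV replicates. The distances exceed 2 on the log2 scale, and the filter on detection kept entries at 0 reads in any library out of the comparison.

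Markers of other cells also moved between the groups. The 3 neuronal markers, all listed, summed to 336 to 1020 RPM in nid-sEVs and 2332 to 3451 RPM in aid-sEVs, and only miR-124-3p, which is also in the neuronal activity list, was called. Without a call, miR-128-3p had means of 334 ± 154 and 500 ± 164 RPM (adjusted p = 0.47 by limma), and miR-9-5p had the lower mean in aid-sEVs given above. The higher sum was thus mainly that of miR-124-3p. The 4 leukocyte markers summed to 152 to 416 RPM in nid-sEVs and 24.5 to 34.7 RPM in aid-sEVs. The 3 red cell and liver markers summed to 633 to 3837 RPM in nid-sEVs and 65.4 to 291 RPM in aid-sEVs. In each of these lists 1 marker was called down-regulated by limma, miR-150-5p (adjusted p = 0.046) and miR-122-5p (adjusted p = 0.016). The ranges of the β cell, mesenchymal, endothelial and acinar lists overlapped between the groups, the β cell list at 74718 to 360886 RPM in nid-sEVs and 164821 to 186134 RPM in aid-sEVs. Of the 4 β cell markers, 1 was called up-regulated by limma, where 15.6% of all entries were. It was miR-7b-5p, at 3751 ± 178 RPM in nid-sEVs and 13462 ± 1558 RPM in aid-sEVs (adjusted p = 0.010). miR-375-3p, miR-7a-5p and miR-184-3p had lower mean RPM in aid-sEVs and were not called. No mesenchymal, endothelial or acinar marker was called. No marker was at 0 in all nid-sEV libraries. The part of these markers in the results for the members was not tested.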

How the data were processed

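Reads of 3 nid-sEV and 3 aid-sEV libraries, each made from 5 ng of sEV RNA, were processed by a company. The submitters' processing notes name fastp 0.23.0, HISAT2 2.2.1 and GRCm38. The miRNA reference, counter and filters are not given in the sources used here. The authors deposited RPM per entry, and columns with their own log2 fold changes, mean abundance, p-values and false discovery rates, which were not used. Division of each value by the smallest value above 0 in its library gave whole reads for 100% of values (within 0.01 of a read).

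limma 3.58.1 (lmFit, eBayes with trend, R 4.3.3) was run on log2(RPM + 1) over all 718 entries with group as the only term and Benjamini-Hochberg adjustment. The added 1 makes fold changes of entries at 0 reads depend on it. edgeR 4.0.16 and DESeq2 1.42.0 served as alternatives with these reads as input. The main limma fit and the edgeR and DESeq2 fits were run on simulated reads, as a check on the direction of calls. The simulated spread between libraries was set in advance and not taken from these data. The other limma settings were not simulated. Wilson and exact intervals are 95% and cover counting error only. Permutation tests were exact and two-sided. The members, lists and tests were chosen with earlier results of these data known. Named were all members, entries sharing a member's seed, the 3 nearest profiles of mmu-miR-212-5p, and list and marker members that were called. The uncalled list and marker members named were picked after their values were seen. The nearest profiles were also planned for miR-34a-5p and were not run. Positions come from GENCODE M21 (GRCm38). Same-numbered libraries are not stated to be paired.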

Additional observations from a re-analysis of the deposited data

How the results depend on the processing

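Depth limits these results, with 0 to 44 reads per member in a nid-sEV library. Over the other settings, the direction was kept for mmu-miR-212-5p in 18 of 18, mmu-miR-132-3p in 19 of 19, mmu-miR-132-5p in 17 of 17, mmu-miR-34c-5p in 19 of 19 and mmu-miR-34c-3p in 17 of 17. For mmu-miR-212-3p it was kept in 16 of 17, with log2 fold changes from -0.20 (without nid-sEV replicate 2) to 2.76 when each library was left out. The call of mmu-miR-212-5p was made in 5 settings, with adjusted p-values from 0.00012 to 0.36 over all of them. mmu-miR-132-5p was called by limma after thinning to the smallest library (adjusted p = 0.033) and without nid-sEV replicate 1 (0.018).

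Against 0 members called by limma, 1 was called with TMM factors, 1 after thinning, 2 by edgeR's quasi-likelihood test with its filter and 1 without (mmu-miR-132-3p lost), 1 by edgeR's exact test, 3 by DESeq2 and 0 to 1 when each library was left out. The 112 up-regulated entries became 62 with a pseudocount of 10, 69 with a mean RPM of at least 10, 23 among entries detected in all libraries, 56 after thinning, 48 and 56 by edgeR's quasi-likelihood test with and without the filter, 61 by its exact test, 65 by DESeq2 and 33 to 150 with each library left out. The 13 down-regulated entries became 8 with a pseudocount of 0.1, 3 with TMM factors, 5 after thinning, 21 and 7 by the quasi-likelihood test with and without the filter, 50 by DESeq2 and 1 to 26 with each library left out. With TMM factors, 124 entries were up-regulated. The fits counted here had 718 entries, or 516 at a mean RPM of at least 10, 219 detected in all libraries and 245 past edgeR's filter. The causes were not tested. With the replicate number as a block, limma called 0 up-regulated and 0 down-regulated entries (187 at an unadjusted p under 0.05) and 0 members. Deviations of same-numbered libraries correlated at -0.054, 0.13 and -0.11 across entries, and those of differently numbered libraries at -0.20 to 0.21. With 3 libraries per group, these values cannot decide whether same-numbered libraries were paired.

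The arm ratio difference of miR-34c, 0.53, was -0.024 with 5 reads added to each arm and -0.41 to 1.84 with each library left out, and that of miR-212 stayed between 1.94 and 4.74.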
